A study of Mus musculus with 6 samples.

Results

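Bile acid synthesis and conjugation was followed in mouse liver through 10 genes: Cyp7a1, Cyp8b1, Cyp27a1, Cyp7b1, Hsd3b7, Amacr, Slc27a5, Baat, Slc10a1 and Fgfr4. Members were found by gene symbol in the annotation of the array, which gave 13 of its 55681 probes that are not controls. The samples were livers of B6C3F1 male mice aged 7 weeks, the first-generation cross of the C57BL/6 and C3H strains. All 6 mice were dosed by mouth for 5 days, 3 with the corn oil vehicle alone (the control group) and 3 with trichloroethylene (TCE), an organic solvent, at 1000 mg/kg body weight in that oil, and each liver was hybridized to a 1-colour array of its own. Whole liver was used, so that fewer cells of a type and less RNA per cell cannot be told apart.

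Bile acids are made from cholesterol in hepatocytes, the main epithelial cells of the liver. In the classic route Cyp7a1 adds the first hydroxyl group to the sterol ring, the rate-limiting step, and Cyp8b1 later adds the 12-alpha hydroxyl group that makes cholic acid. In the alternative route Cyp27a1 first oxidizes the side chain in mitochondria and Cyp7b1 then hydroxylates the ring, and Hsd3b7 serves both routes. Amacr turns the side chain into the form that peroxisomes can shorten, Slc27a5 activates bile acids with coenzyme A, and Baat joins them to taurine or glycine. Slc10a1 brings bile acids back from the blood into hepatocytes, and Fgfr4, with its partner Klb, receives the intestinal hormone that represses Cyp7a1.

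The array reads each gene through a probe of 60 bases, and the sequences that carry the comparison of the routes are shown here, 5′ to 3′ in the sense of the mRNA, with positions on the mouse build mm9. For Cyp8b1 and Cyp27a1 the whole probe is given, and for Cyp7a1 and Cyp7b1, whose probes lie late in the transcript, its first 30 bases. No letter is capitalized, since no part of a probe was singled out.
Cyp7a1, minus strand, probe at chr4:6193456-6193515: ttgtttttaaaacaagttttatgactccct
Cyp8b1, minus strand, probe at chr9:121824595-121824654: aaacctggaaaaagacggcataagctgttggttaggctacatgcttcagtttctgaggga
Cyp27a1, plus strand, probe at chr1:74782203-74782262: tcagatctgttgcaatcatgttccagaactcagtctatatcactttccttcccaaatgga
Cyp7b1, minus strand, probe at chr3:17972286-17972345: ttggttgagatcaatccagttggttttggg

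The promoters of Cyp8b1 and Cyp27a1 were compared as well, since each stands for a different route. RefSeq windows (build GRCm38.p6) were at hand for 5 of the 10 members, and the 250 bases before the gene start are printed, with matches on either strand in capitals. The motifs, which were chosen after the windows had been read, were CAAAGTCCA, a form bound by HNF4-alpha, and CAAGGNCA, the core of the site bound by LRH-1 (the product of Nr5a2), both of them liver nuclear receptors.
Cyp8b1, minus strand, chr9:121916306-121916555: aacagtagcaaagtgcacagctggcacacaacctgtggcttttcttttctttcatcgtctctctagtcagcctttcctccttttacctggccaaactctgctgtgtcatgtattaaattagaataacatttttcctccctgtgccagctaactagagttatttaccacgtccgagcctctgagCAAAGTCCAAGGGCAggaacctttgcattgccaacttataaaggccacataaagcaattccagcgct
Cyp27a1, plus strand, chr1:74713285-74713534: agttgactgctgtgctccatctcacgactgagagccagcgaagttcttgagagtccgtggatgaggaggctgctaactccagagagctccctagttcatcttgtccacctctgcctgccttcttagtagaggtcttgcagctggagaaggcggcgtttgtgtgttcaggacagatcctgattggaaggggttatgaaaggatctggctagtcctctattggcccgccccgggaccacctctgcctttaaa
In the Cyp8b1 window the 2 motifs overlap, the first starting 67 and the second 60 bases before the gene start, and in the Cyp27a1 window there is 0 of either. The windows of Hsd3b7, Slc10a1 and Fgfr4 also hold 0 of either, so this absence is not particular to Cyp27a1. No window was at hand for Cyp7a1 or Cyp7b1, so the letters do not compare the routes. Among all 32851 promoter windows of this length, 0.384% hold the first motif and 5.53% the second. A match describes the letters only.

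The values given below are log2 signals after quantile normalization of the 6 arrays. Between 23537 and 24965 probes per array were well above background by the flag of the scanner software, and 0 spots were saturated. Each of the 13 member probes was well above background in all 6 mice, so that no member was left out by the filter on dim probes. The array of control mouse 1 came from a different slide and scan than those of the other 5 mice. Groups were compared with limma (two-sided), with Benjamini-Hochberg adjustment over all 22731 detected probes, that is, those with this flag in every mouse of 1 group or both. The threshold for a gene combined an adjusted p no higher than 0.05 with a fold change of at least 2, and 1.41% of detected probes were past it. Where a gene had more than 1 detected probe, the brightest stood for it. Nothing in the labels says more about the mice of a group than that they are separate animals, and with 3 in each an exact permutation test of a single value cannot give a p below 0.1.

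By these rules 1 of the 10 members, Cyp7b1, was past the threshold, and it was lower in the TCE group. Of all 13284 detected genes 1.73% were past the threshold in either direction and 0.429% in the direction of Cyp7b1. Without the limit on fold change Cyp7b1 was still the only such member, against 2.39% of detected genes in either direction and 0.587% downward. The mean was lower in TCE mice for 9 of the 10 members, against 46.9% of detected genes, and the median log2 change of the members was -0.43 against 0.02 for all detected genes. In 7 members all 3 TCE mice lay on one side of all 3 control mice, 6 of them lower and Amacr higher. Such a separation was seen in 27.9% of detected genes in either direction and in 10.8% downward. An unadjusted limma p under 0.05 was found for 4 members, Cyp7a1, Cyp8b1, Cyp7b1 and Fgfr4, all lower in the TCE group, against 7.11% of detected genes in that direction and 19.1% in either.

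**Figure D1:**
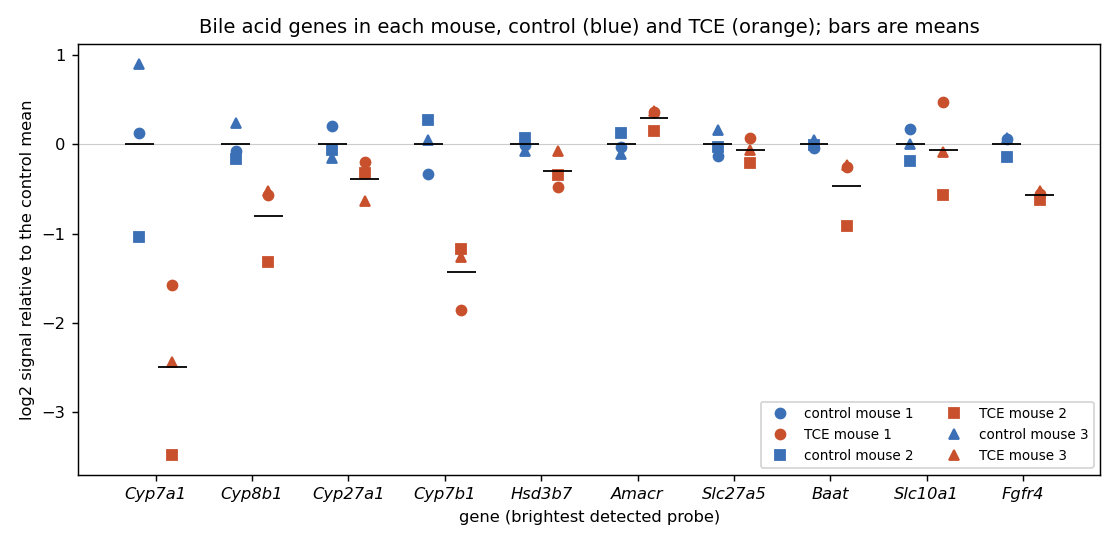
Log2 signal of each of the 10 members in each mouse, relative to the mean of the 3 control mice, by the brightest detected probe; blue points are control mice, orange points are TCE mice, marker shapes are mouse numbers within a group and bars are group means. Cyp7a1 has the widest spread in both groups. The TCE points of Fgfr4 lie close together below the control points, and those of Cyp7b1 are more spread but also lie below the control points.

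Cyp7a1, which starts the classic route, had the lowest TCE mean relative to control of the 10 genes and also the widest spread. Its log2 signal was 9.36, 8.20 and 10.14 in control mice 1, 2 and 3, and 7.66, 5.75 and 6.79 in TCE mice 1, 2 and 3. The groups did not overlap, but the gap between them was smaller than the range within either group. The means were 9.23 ± 0.98 and 6.73 ± 0.96 (SD, n = 3 each), a 5.65-fold difference, with a log2 change of -2.50, a standard error of 0.63 and a 95% confidence interval from -4.02 to -0.98. By limma the adjusted p was 0.118, outside the threshold. The pooled SD of Cyp7a1 within groups was 0.97, and 1.4% of detected genes had a larger one. In the 6 fits that leave out 1 mouse, the log2 change lay between -3.02 and -2.01 and the limma adjusted p between 0.142 and 0.251. Normexp background correction with an offset of 50 gave a log2 change of -1.86. By the methods' t-test, which is not adjusted, Cyp7a1 was past the threshold.

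Cyp8b1, the 12-alpha hydroxylase of the classic route, was lower in each TCE mouse than in any control mouse. It read 11.58, 11.49 and 11.90 in the control mice and 11.09, 10.34 and 11.13 in the TCE mice. The second TCE mouse lay lowest, as it did for Cyp7a1. The log2 change was -0.80 with a standard error of 0.25, a 1.75-fold difference, and the interval from -1.40 to -0.21 lay below 0, while the limma adjusted p was 0.170.

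Cyp7b1, the ring hydroxylase of the alternative route, fell in the TCE group. Its log2 signal was 15.79, 16.39 and 16.17 in control mice 1, 2 and 3, and 14.26, 14.94 and 14.86 in TCE mice 1, 2 and 3. The gap between the groups was wider than the range of either group, and the lowest mouse here was TCE mouse 1, not TCE mouse 2. The means were 16.12 ± 0.30 and 14.69 ± 0.37 (SD, n = 3 each), a 2.69-fold difference, with a log2 change of -1.43 (standard error 0.24, limma adjusted p = 0.0440). The size of the change was steady, between -1.59 and -1.22 with each mouse left out, but the call was not: the adjusted p was 0.0769 to 0.155 in those 6 fits. Within the slide that held both groups, that is, without control mouse 1, the change was -1.59 (limma adjusted p = 0.0780). Scaling to the 75th percentile of each array gave -1.42 (limma adjusted p = 0.0696).

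Cyp27a1, which opens the alternative route, differed less. Its log2 signal was 12.15, 11.88 and 11.79 in the control mice and 11.74, 11.62 and 11.31 in the TCE mice. The highest TCE mouse lay only just below the lowest control mouse. The log2 change was -0.38 with a standard error of 0.16 and an interval from -0.78 to 0.01 (limma adjusted p = 0.295). The probe is spotted 10 times on each array, and the SD among its spots within an array was 0.0172 to 0.116, below the SD of 0.19 to 0.22 among mice of a group.

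The routes were set against each other by asking whether the change of a classic enzyme differed from that of an alternative enzyme, in 4 pairs. For each mouse the difference between the log2 signals of the 2 genes was taken, and differences were compared with an exact permutation test (two-sided). Only the pair of Cyp7a1 with Cyp27a1 separated the groups: relative to the control mean the difference was -0.08, -0.97 and 1.06 in control mice and -1.37, -3.16 and -1.82 in TCE mice. The change of Cyp7a1 minus that of Cyp27a1 was -2.11 with a standard error of 0.79 (exact permutation p = 0.1, the smallest possible, and 0.4 adjusted over the 4 pairs). Cyp7a1 against Cyp7b1 gave -1.07 with a standard error of 1.00 (exact permutation p = 0.3), and the values of the groups overlapped. Cyp8b1 against Cyp27a1 gave -0.42 with a standard error of 0.38 (exact permutation p = 0.4). Cyp8b1 against Cyp7b1 gave 0.63 with a standard error of 0.47 (exact permutation p = 0.3), a value of the opposite sign, since Cyp7b1 was further from its control mean than Cyp8b1. No pair passed the test, and a design of this size could not have passed it. Both routes held 1 gene with a log2 change beyond -1 and 1 gene within it.

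**Figure D2:**
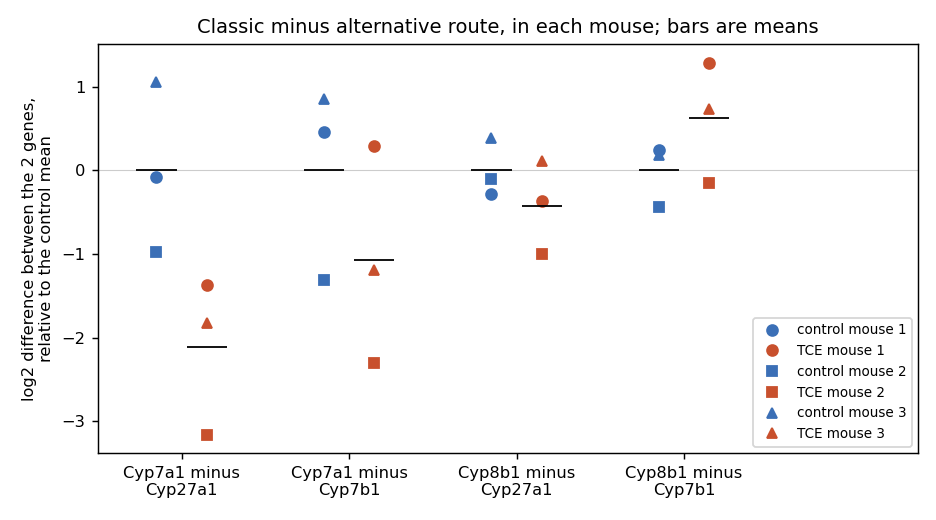
Difference between the log2 signals of a classic and an alternative enzyme in each mouse, relative to the mean difference of the control mice, for 4 pairs of genes; blue points are control mice, orange points are TCE mice and bars are group means. The groups are apart for Cyp7a1 minus Cyp27a1, at a mean of -2.11 in TCE mice, and overlap for the other 3 pairs.

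Hsd3b7, the dehydrogenase that both routes pass through, read 16.02, 16.10 and 15.95 in control mice and 15.55, 15.68 and 15.95 in TCE mice. The third TCE mouse was level with the third control mouse, so that the groups touched. The log2 change was -0.30 (standard error 0.14, limma adjusted p = 0.337).

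None of the genes of side chain handling and conjugation passed the test. Amacr, the racemase of peroxisomal side chain oxidation, was the only member with a higher mean in the TCE group, with 14.67, 14.83 and 14.59 in control mice and 15.06, 14.85 and 15.07 in TCE mice. The second TCE mouse was only just above the second control mouse. The log2 change was 0.30, with a standard error of 0.13 and an interval from -0.01 to 0.60 (limma adjusted p = 0.293), and its 10 spots per array had an SD of 0.0145 to 0.109. Baat, which conjugates bile acids, read 11.20, 11.24 and 11.29 in control mice and 10.99, 10.33 and 11.01 in TCE mice, and TCE mouse 2 was well below the other two. Its log2 change of -0.47 had a standard error of 0.20 (limma adjusted p = 0.298) and was -0.24 without TCE mouse 2, the smallest of the fits with 1 mouse left out. Slc27a5, which activates bile acids, was measured by a pair of probes whose log2 changes were -0.07 and -0.13, each with a standard error of 0.13 or less, and whose groups overlapped. The intervals ran from -0.39 to 0.26 and from -0.39 to 0.13.

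The uptake carrier Slc10a1 was measured by 2 probes that differ in what they can bind. The sequences are shown because the rule of the brightest probe picks the less specific of them.
Slc10a1, minus strand, dimmer probe at chr12:82061470-82061529: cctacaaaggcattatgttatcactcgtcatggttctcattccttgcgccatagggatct
Slc10a1, minus strand, first 30 bases of the brighter probe at chr12:82056539-82056598: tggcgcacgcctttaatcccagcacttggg
The brighter probe has the letters of a B1 element, a short repeat present in very many mouse genes. The deposited annotation lists transcripts of 4 genes for it, Slc10a1, Spc24, Med16 and 4930402H24Rik. On either strand 24 other probes of the array share a run of 15 bases with it, while for the dimmer probe there are 0. By the same count the Cyp7a1 probe shares such a run with 2 other probes and the Hsd3b7 probe with 1. The count depends on the length: with runs of 20 bases on the same strand it was 0 for the brighter Slc10a1 probe. The dimmer probe read 13.43, 13.23 and 13.05 in control mice and 13.13, 12.71 and 12.97 in TCE mice, and the groups overlapped at 1 mouse each. Its log2 change was -0.30 (standard error 0.16, limma adjusted p = 0.400). The brighter probe had a log2 change of -0.06 with a standard error of 0.27, and its TCE mice ranged from 16.79 to 17.84, on both sides of the control mice.

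Fgfr4, the receptor that signals to repress Cyp7a1, was lower in every TCE mouse than in any control mouse by its brighter probe. Its pooled SD within groups, 0.09, was the smallest among the members, although Baat and Hsd3b7 had tighter control groups. That probe read 12.12, 11.92 and 12.13 in control mice and 11.50, 11.43 and 11.53 in TCE mice. The log2 change was -0.57 with a standard error of 0.11 and an interval from -0.85 to -0.29, or 1.48-fold, short of a fold change of 2, and the limma adjusted p was 0.0720. The dimmer probe, at 8.47 ± 0.34 against 8.24 ± 0.05 (SD, n = 3 each), had a log2 change of -0.23 with a standard error of 0.19, and its groups overlapped. The difference between the 2 probes was not tested.

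**Figure D3:**
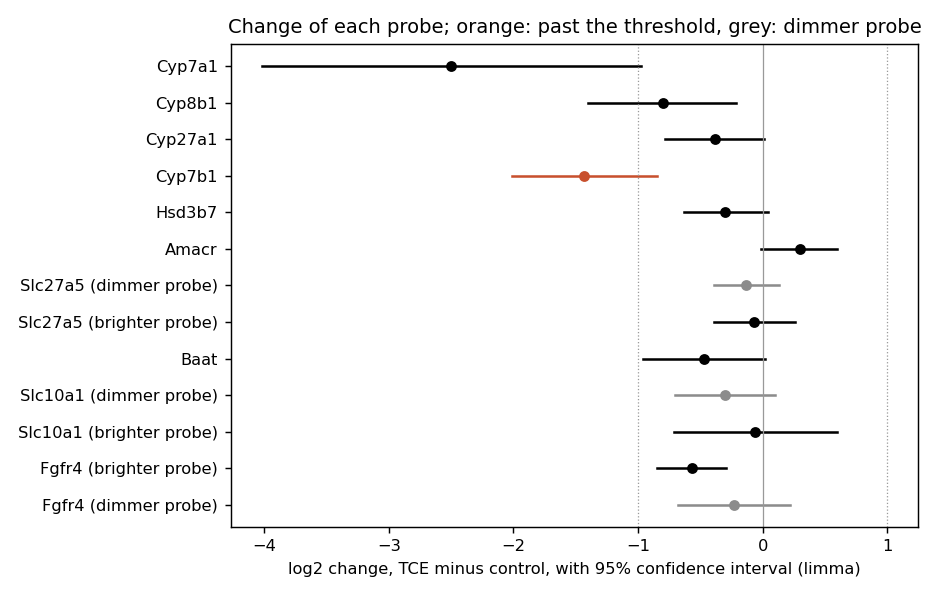
Log2 change (TCE minus control) of each of the 13 member probes with its 95% confidence interval from limma; orange marks the probe past the threshold, grey marks the dimmer probe of a gene with 2, and dotted lines mark a fold change of 2 in either direction. Cyp7a1 has the interval farthest from 0 on average and also the widest, from -4.02 to -0.98, while that of Cyp7b1 runs from -2.01 to -0.85.

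The members did not order the mice alike. TCE mouse 2 had the lowest TCE value for 7 members, among them Cyp7a1, Cyp8b1 and Baat. TCE mouse 1 had it for Cyp7b1 and Hsd3b7, and TCE mouse 3 for Cyp27a1. The genes whose pattern over the 6 mice was nearest to that of Cyp7a1 were sought among 11907 detected genes, by the root mean square difference of log2 signals taken relative to each control mean. Cish was nearest at 0.67, and D0H4S114 and Serpina4-ps1 were both at 0.82. Hivep3 and Grin3b were also among the 5 nearest by their signals, but those signals lacked the flag for signal above background in all 3 TCE mice, so that their distance is not measured and they are given no place in the order. Cish, a feedback inhibitor of cytokine and growth hormone signaling, read 9.41, 9.60 and 12.01 in control mice and 8.90, 7.80 and 7.98 in TCE mice. Control mouse 3 was the highest of the 6 mice in both Cish and Cyp7a1, but Cish was picked for its nearness over these same values. None of the 5 was past the threshold.

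Other genes of bile acid metabolism were read from lists of enzymes, regulators and transporters. Of 13 detected enzymes 0 were past the threshold, against 1.73% of detected genes. At an adjusted p of 0.05 or less, against a share of 2.39% of detected genes, there was 1. That gene was Acot8, a peroxisomal thioesterase that can release bile acids from coenzyme A, which rose from 11.36, 11.50 and 11.51 in control mice to 12.14, 12.14 and 12.06 in TCE mice. Its log2 change was 0.66 (standard error 0.11, limma adjusted p = 0.0413), and its second probe gave 0.79. An unadjusted limma p under 0.05 was found for 4 enzymes with a higher and 2 with a lower TCE mean. Of all detected genes 19.1% had one in either direction and 7.11% downward. Cyp2c70, which makes the muricholic acids of the mouse, was tight in control mice at 16.72, 16.67 and 16.67 and lower in TCE mice at 15.89, 15.59 and 16.24. Its log2 change was -0.78 (standard error 0.18, limma adjusted p = 0.0969). The 13 enzymes had a median log2 change of 0.13, and 5 had a lower mean in the TCE group, against 46.9% of detected genes.

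Of 15 detected regulators 1 was past the threshold, against 1.73% of detected genes in either direction and 0.429% downward. Foxa2, a liver transcription factor, fell from 12.23, 12.37 and 12.65 in control mice to 11.45, 11.45 and 11.15 in TCE mice, with a log2 change of -1.07 (standard error 0.16, limma adjusted p = 0.0319). Its second probe gave -1.14. The regulators nearest to Cyp7a1 in the pathway did not pass the test. Nr1h4, the bile acid receptor FXR, had a log2 change of -0.25 (standard error 0.13, limma adjusted p = 0.384), and Klb, the partner of Fgfr4, had -0.01 with a standard error of 0.28. Nr0b2, the repressor SHP that FXR induces, read 9.52, 9.56 and 8.08 in control mice and 8.77, 9.02 and 9.10 in TCE mice. Its lowest value was that of control mouse 3, and the interval of its log2 change, from -1.06 to 0.88, reaches a fold change of 2 downward and nearly so upward. Of the receptors whose motifs are printed above, Nr5a2 had a log2 change of -0.39 (limma adjusted p = 0.244), in groups that did not overlap. Hnf4a had 0.09 (limma adjusted p = 0.759). For 1 regulator with a higher and 2 with a lower TCE mean the unadjusted limma p was under 0.05, against 19.1% of detected genes in either direction. The median log2 change of the regulators was -0.13.

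Of 11 detected transporters 1 was past the threshold and 1 more passed the test at a smaller size. The shares of all detected genes were 1.73% past the threshold, with 0.429% downward, and 2.39% at an adjusted p of 0.05 or less. Slco1a4, a sinusoidal organic anion carrier, fell from 9.18, 9.06 and 9.49 to 8.21, 7.69 and 8.09. Its log2 change was -1.24 (standard error 0.19, limma adjusted p = 0.0328). Abcb4, which moves phosphatidylcholine into bile, rose from 14.45, 14.49 and 14.42 to 15.10, 15.39 and 15.08. Its log2 change was 0.74 (standard error 0.13, limma adjusted p = 0.0465), while another probe gave 0.84 with an adjusted p of 0.215. Abcb11, the export pump for bile salts, had a log2 change of -0.11 (standard error 0.12, limma adjusted p = 0.683). For 3 transporters with a higher and 2 with a lower TCE mean the unadjusted limma p was under 0.05. Of all detected genes 19.1% had such a p in either direction and 7.11% downward. The median of the transporters was 0.00. The calls of Acot8, Foxa2, Abcb4 and Slco1a4 were each lost in all 6 fits with 1 mouse left out, with adjusted p values from 0.0628 to 0.163, while the changes kept their direction.

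**Figure D4:**
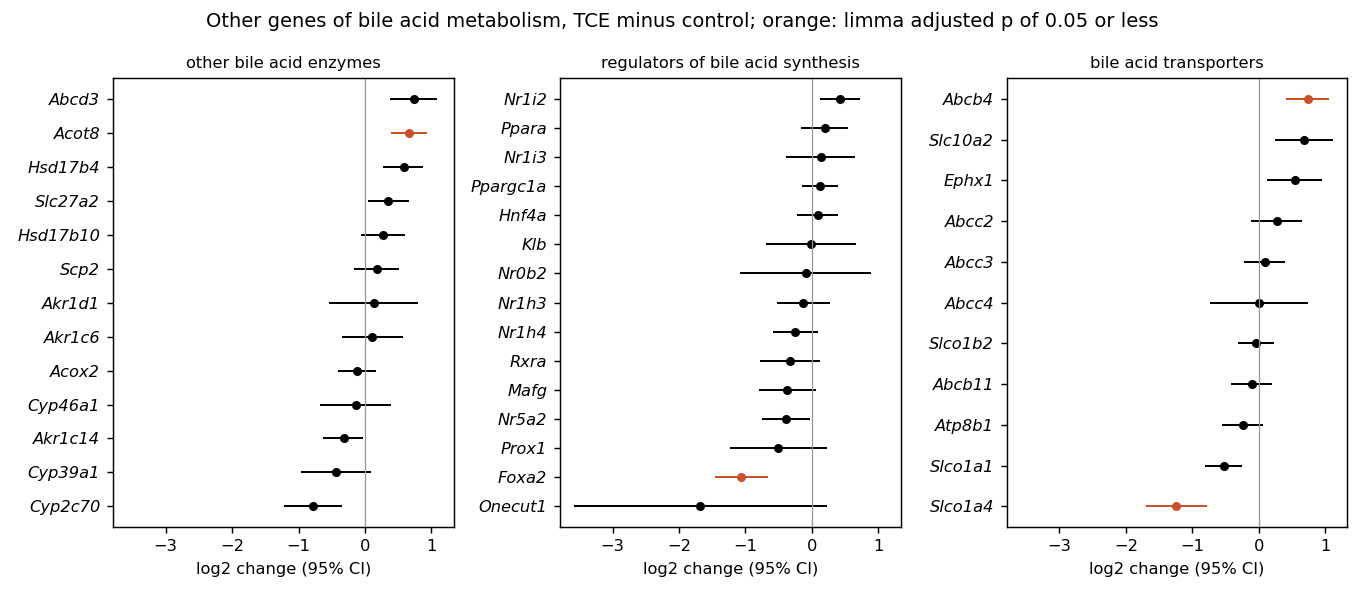
Log2 change (TCE minus control) with 95% confidence interval from limma for the detected genes of 3 lists, other enzymes, regulators and transporters of bile acids, ordered by size within each list; orange marks a limma adjusted p of 0.05 or less. Acot8 and Abcb4 lie above 0 and Foxa2 and Slco1a4 below it, and most intervals cover 0.

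The label of the tissue was checked with marker genes. All 10 hepatocyte markers were well above background, and 0 of them were past the threshold by limma. At an unadjusted limma p under 0.05, 1 was higher and 2 were lower, against 19.1% of detected genes in either direction. The summed signal of these markers was 2076451 to 2104748 in control mice and 1929914 to 2144788 in TCE mice. The summed signal of endothelial markers (6 of 6 detected) was 22940 to 23409 in control and 12838 to 24948 in TCE mice, lowest in TCE mouse 1, in which Cyp7b1 was also lowest. For erythroid markers (4 of 5) it was 77161 to 110834 and 29892 to 91818, lowest in TCE mouse 2, in which Cyp7a1 was also lowest. Hba-a1, Hbb-b1 and Slc4a1 had log2 changes of -0.71, -0.61 and 0.10, each with groups that overlapped. At an adjusted p of 0.05 or less there was 1 erythroid marker, against 2.39% of detected genes in either direction and 0.587% downward. It was Alas2, the erythroid enzyme of heme synthesis, which fell with a log2 change of -0.91 (limma adjusted p = 0.0215). When single mice were dropped, Alas2 kept this call only without TCE mouse 3 and lost it in the other 5 fits. Over all 6 fits the limma adjusted p was 0.0404 to 0.11. The sums of macrophage markers (7 of 7), stellate cell and fibroblast markers (6 of 7), cholangiocyte markers (3 of 6) and lymphocyte and neutrophil markers (5 of 7) overlapped between the groups. By limma 0 of these markers were at an adjusted p of 0.05 or less. At an unadjusted limma p under 0.05, 2 of them were lower and 1 was higher, against 19.1% of detected genes in either direction. In 2 of the markers at that unadjusted p the groups did not overlap and the means differed more than 2-fold. They were the stellate cell marker Lrat, with a log2 change of -1.35 (limma adjusted p = 0.0676), and the neutrophil marker S100a8, with 1.19 (limma adjusted p = 0.0886). The third was Cd3e, a T cell marker, with -0.63 (limma adjusted p = 0.275). Of all detected genes, 27.9% had groups that did not overlap. Other markers on the list of Lrat were Reln at -1.34 (limma adjusted p = 0.368), Dcn at 0.01, Col1a1 at 0.25, Col1a2 at 0.05 and Col3a1 at 0.16. On the list of S100a8, S100a9 had 0.26 (limma adjusted p = 0.703), Ptprc 0.65 and Cd79a 0.40. The cholangiocyte markers Krt7, Epcam and Cftr and the stellate cell marker Des were not detected. The 12 detected clock genes, relevant because Cyp7a1 follows the time of day, had 0 past an adjusted p of 0.05 by limma and 0 at an unadjusted p under 0.05, with a median log2 change of -0.18. Their summed signal was 55453 to 66747 in control mice and 41194 to 68886 in TCE mice, lowest in TCE mouse 3. Tef and Dbp, the brightest of them, weighed most in this sum. Arntl, a core activator of the clock, read 8.10, 8.00 and 8.16 in control mice and 7.89, 6.87 and 8.73 in TCE mice. TCE mouse 2 was lowest, as for Cyp7a1, and TCE mouse 3 highest. Clock had its lowest value, 8.15, in TCE mouse 2 as well. Like Arntl, Clock was highest in TCE mouse 3, at 9.15. Dbp (14.51) and Tef (15.02) were highest of the 6 mice in TCE mouse 2 and lowest in TCE mouse 3, at 13.44 and 14.21. Per1 and Per2 were highest in TCE mouse 1, at 11.70 and 7.78. The median and the sum mix genes that moved in opposite directions between these mice, so they cannot show a shift in the time of day. The part of these cell types and of the clock in the results above was not tested.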

How the data were processed

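Liver RNA of 3 control and 3 TCE mice was labeled with Cy3 and hybridized to an Agilent mouse array. Per the labels, the authors extracted spots with Agilent Feature Extraction 10.7.1.1. The deposited intensity is background-subtracted and detrended within each array. The authors also deposited the mean quantile-normalized log2 value of each group. That table has 6 columns of detection flags of single arrays, which were not used here. The array numbers in the names of the deposited files differ from those in the sample titles, within the same group, and mouse numbers here are the replicate numbers of the labels. Group comparisons do not depend on these numbers.

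Control spots and spots flagged as outliers (123 to 189 per array) were left out, log2 intensities were averaged per probe with no pseudocount, and arrays were quantile normalized, as the study's methods state. Group means lay within 0.01 of the deposited log2 means for 99.95% of probes. Detected probes were fitted with limma 3.58.1 (R 4.3.3) on group alone. The fit was tested on simulated data. The number of arrays limits the precision.

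Members and lists were chosen with earlier results of these data known. Named are all members, list genes past the threshold or at an adjusted p of 0.05 or less, Cyp2c70, Nr1h4, Nr0b2, Klb, Abcb11 and the 5 genes nearest to Cyp7a1. Other named list genes were added after the values were seen. Alternatives were another scaling, background correction, filters, a block for replicate number or slide, outlier spots retained, each mouse left out, the mean of a gene's probes, the methods' t-test, no fold limit, and, added after the data were seen, the other Slc10a1 probe.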

Additional observations from a re-analysis of the deposited data

How the results depend on the processing

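The count of 1 member past the threshold (Cyp7b1) became 0 with 75th percentile scaling, with no filter on dim probes, with the slide as a block, with the replicate number as a block, with the methods' t-test after adjustment, and with any of the 6 mice left out (0 to 0), and 2 (Cyp7a1 and Cyp7b1) with that t-test unadjusted. Same-numbered mice of the 2 groups did not deviate together (r = 0.09, 0.01 and -0.09 over detected probes), so the numbers were not taken to pair them. Across all detected probes the 321 past the threshold were 96 without the filter, 63 with the replicate block, 177 with the slide as a block, 126 to 272 with a mouse left out, and 594 and 35 with the t-test before and after adjustment, while adjusted p alone called 456. The 4 differences between the routes moved by less than 1 SD in each alternative run, but several of these runs could not have moved them further. With 3 mice per group, leaving 1 out cannot move a difference by 1 pooled SD, and the replicate block returns the same difference. With 1 mouse left out they lay from -2.60 to -1.59, from -1.75 to -0.45, from -0.68 to -0.13 and from 0.29 to 1.01, in the order given above. Normexp background correction moved the first to -1.48 and the second to -0.45. Changes near 0 turned sign: with 1 mouse left out Slc10a1 lay from -0.33 to 0.20 and Slc27a5 from -0.14 to 0.01. Slc10a1 was 0.03 without control mouse 1 and with the slide as a block and 0.20 without TCE mouse 2, and Slc27a5 was 0.01 without control mouse 3 and 0.00 without TCE mouse 2. The direction of the other 8 members held in each of their 18 alternatives, but not all of these could change it. The filters, the replicate block and the t-tests leave the log2 change as it was. The slide as a block is the same fit as leaving out control mouse 1. Why the calls moved was not tested, nor was it for the filter, which changes both the number of probes tested and the standard errors.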

Other observations

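Onecut1, a liver transcription factor on the list of regulators, was picked after its values were seen. It read 12.10, 10.73 and 14.10 in control mice and 10.48, 10.64 and 10.78 in TCE mice, so that the spread was 1.70 (SD) in control and 0.15 in TCE mice. Control mouse 3 was highest, as it was for Cyp7a1, and the groups overlapped (log2 change -1.68, standard error 0.78, limma adjusted p = 0.330). A dimmer probe gave -1.78. Abcd3, the peroxisomal carrier that takes in bile acid precursors, and Hsd17b4, which acts in shortening the side chain, were higher in each TCE mouse than in any control mouse, with log2 changes of 0.73 and 0.58 (limma adjusted p = 0.0645 and 0.0753). Slco1a1, another sinusoidal carrier, had a log2 change of -0.53 (limma adjusted p = 0.0740). These genes were also chosen after their values were seen.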
